A study of Mus musculus with 28 samples.

Results

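Slc17a6, Fam20a, Spry1, Ovol2, Dlg2, Lancl3 and Dmkn are 7 of the 17097 genes measured on 28 Affymetrix mouse arrays of leukocytes (CD45+ cells) sorted from tumours. They were chosen by their difference between Nrp1-deleted and control hosts, Dmkn for higher values in MC38 tumours and the other 6 for higher values mainly in B16 tumours. Those genotype differences are therefore described and not tested here. Tested for these genes are only the differences between tumour days, averaged over both genotypes, which are not the contrast that chose them. They rest on the same arrays, so a genotype difference confined to 1 day enters the day difference as well. The 7 genes are read by 10 probe sets, and the brightest of a gene's probe sets, by its mean on all 28 arrays, gives the main value. Values are deposited on a log2 scale, so that a difference of 1 is a doubling.

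B16.F10 is a mouse melanoma line and MC38 a mouse colon carcinoma line. Hosts labelled Nrp1L/LFoxp3Cre-YFP are called Nrp1-deleted: Cre recombinase made from the Foxp3 gene removes the floxed Nrp1 gene in cells that express Foxp3, which are mainly regulatory T cells. Foxp3Cre-YFP hosts, which carry the same Cre, are the controls. The 12 groups were Nrp1-deleted and control hosts at an early day, day 12 and day 18 of B16 growth and at days 6, 12 and 18 of MC38 growth. B16 day 18 and MC38 day 12 had 3 arrays a group and the other settings of tumour and day had 2. The early B16 arrays are day 8 by their titles and day 6 by their source names. The labels give no host age, and none states that replicates are separate mice, so p-values measure the spread between arrays, which may be technical. In such bulk samples, fewer cells of a type and less RNA per cell cannot be told apart.

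Nrp1, the floxed gene, was lower by its main probe set in Nrp1-deleted arrays without overlap in all 6 settings, by 0.84 ± 0.09 (SE) on average. Its other probe sets overlapped on MC38 day 6, where the first Nrp1-deleted array read 8.49 and 8.50, against lowest control values of 8.46 and 8.40. Its probes were not placed against the floxed part here, and myeloid cells can express Nrp1 as well. Ptprc, which encodes CD45, lay between 11.51 and 12.90 on every array. It was 0.25 ± 0.03 (SE) higher in Nrp1-deleted hosts on average, in 6 of 6 settings and without overlap in 5. The shape of the values puts the arrays in 3 sets: early and day 12 B16, day 6 and day 18 MC38, and day 18 B16 with day 12 MC38. Days are tested against each other only within a set, and levels set side by side across sets hold any difference between the sets.

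The 7 genes have varied textbook roles, most of them outside leukocytes. Slc17a6 encodes VGLUT2, which loads glutamate into the synaptic vesicles of excitatory neurons. Dlg2 encodes PSD-93, a membrane-associated guanylate kinase (MAGUK) that anchors receptors at synapses. Fam20a is a pseudokinase of the secretory pathway that activates the kinase Fam20C, which phosphorylates secreted proteins. Spry1, a Sprouty protein, is induced by receptor signalling and damps the ERK pathway in return, in lymphocytes among other cells. Ovol2 is a zinc-finger repressor that keeps cells epithelial. Lancl3 belongs to the LanC-like proteins, named for bacterial enzymes that make lantibiotics. Dmkn encodes dermokine, a protein secreted by the upper epidermis.

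The genes lie apart, on 5 chromosomes, with Slc17a6 at chr7:51621830-51671126, Dlg2 at chr7:90476188-92449246 and Dmkn at chr7:30763756-30781066 (RefSeq, GRCm38.p6). Fam20a lies at chr11:109669746-109723163, Spry1 at chr3:37639947-37644599, Ovol2 at chr2:144305175-144332080 and Lancl3 at chrX:9199973-9268085. RefSeq promoter windows, which span a transcript start, matched all 7 genes in 12 windows. Shown 5′ to 3′ on the plus strand are a window of Slc17a6, which had the largest B16 difference of the 7, one of Spry1, which stayed apart on all 3 B16 days, and both non-overlapping windows of Dmkn, which went opposite ways in the tumours. Capitals mark matches on either strand to TGANTCA, the AP-1 site, and GGAAAA, the core of NFAT sites.
Slc17a6, chr7:51621580-51621879: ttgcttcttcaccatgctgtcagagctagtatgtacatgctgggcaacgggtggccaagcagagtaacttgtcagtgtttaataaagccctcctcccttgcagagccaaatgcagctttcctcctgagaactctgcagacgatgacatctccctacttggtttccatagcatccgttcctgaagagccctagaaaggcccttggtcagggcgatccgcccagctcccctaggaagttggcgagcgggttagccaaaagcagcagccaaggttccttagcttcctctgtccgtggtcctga
Spry1, chr3:37639697-37639996: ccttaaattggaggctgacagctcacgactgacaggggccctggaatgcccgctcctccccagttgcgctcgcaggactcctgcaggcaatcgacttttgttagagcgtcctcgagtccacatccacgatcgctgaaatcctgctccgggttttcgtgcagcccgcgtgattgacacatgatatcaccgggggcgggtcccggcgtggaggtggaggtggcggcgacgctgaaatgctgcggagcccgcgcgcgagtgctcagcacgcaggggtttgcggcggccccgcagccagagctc
Dmkn, chr7:30763506-30763805: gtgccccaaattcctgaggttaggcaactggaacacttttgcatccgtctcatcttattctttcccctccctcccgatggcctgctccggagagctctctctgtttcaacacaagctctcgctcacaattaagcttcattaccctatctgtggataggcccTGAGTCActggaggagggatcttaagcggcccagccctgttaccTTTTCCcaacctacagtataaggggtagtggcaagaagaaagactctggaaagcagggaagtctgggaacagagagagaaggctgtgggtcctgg
Dmkn, chr7:30776155-30776454: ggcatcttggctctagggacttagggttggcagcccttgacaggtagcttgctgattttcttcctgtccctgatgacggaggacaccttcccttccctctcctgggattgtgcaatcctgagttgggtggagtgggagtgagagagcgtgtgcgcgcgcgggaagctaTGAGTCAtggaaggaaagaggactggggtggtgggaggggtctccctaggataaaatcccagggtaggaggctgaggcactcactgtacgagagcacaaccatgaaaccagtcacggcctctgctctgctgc
TGANTCA was found in Dmkn alone of the 7 genes, in each of its 3 windows, though a pair of these overlap and share the same site. It was found in 7.81% of 32851 mouse promoter windows. Such shares count windows, while Dmkn and Dlg2 have 3 windows each. GGAAAA was found in windows of Dmkn and Dlg2 and in 23.4% of all windows. AGATAA, read by GATA factors, and TATAAA, the TATA box, were found in Dlg2 alone of the 7, against 11.2% and 13.6% of all windows. The E-box CACGTG was in none of the 12 and in 7.15% of all windows. These are matches of letters, and no factor was measured.

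Slc17a6 showed the largest difference in B16 tumours of these 7 genes. It stood at 7.59 and 8.43 on Nrp1-deleted early B16 arrays, against 5.29 and 5.07 on control arrays. On day 12 it stood at 8.49 and 8.16 in Nrp1-deleted hosts, against 5.66 and 5.21 in controls. On day 18 it was 6.24, 6.97 and 7.26 in Nrp1-deleted hosts, against 4.45, 5.60 and 6.27 in controls. The groups were apart on the early day and day 12 and overlapped by 1 control array on day 18. The mean of the 3 days was 2.37 ± 0.33 (SE) higher, a 5.16-fold difference. In MC38 tumours the gene stood at 3.13 and 3.06 in Nrp1-deleted hosts on day 6, against 2.96 and 3.27 in controls, below the median of all values on the arrays, 3.64. On day 12 it was 4.98, 5.73 and 6.19 in Nrp1-deleted hosts, against 4.01, 5.49 and 3.80 in controls. On day 18 it was 4.61 and 6.79 in Nrp1-deleted hosts, against 3.18 and 3.84 in controls. Day 6 thus gave no separation and day 18 did, with the 2 Nrp1-deleted arrays far apart. The MC38 mean was 1.13 ± 0.33 higher. A second, dimmer probe set of Slc17a6 was higher in all 6 settings, by 2.07 in B16 and 0.56 in MC38.

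Fam20a lay above controls without overlap in 5 of 6 settings. It stood at 6.61 and 7.78 in Nrp1-deleted early B16 arrays, against 4.99 and 4.32 in controls. On B16 day 12 it was 6.20 and 5.86 in Nrp1-deleted hosts, against 4.81 and 3.99 in controls. On B16 day 18 it was 4.57, 4.99 and 6.75 in Nrp1-deleted hosts, against 3.58, 3.63 and 4.20 in controls. No B16 day overlapped, and the third Nrp1-deleted array of day 18 stood well above its replicates. In MC38 it was 5.69 and 6.30 in Nrp1-deleted hosts on day 6, against 4.91 and 4.97 in controls. On MC38 day 12 it was 3.87, 4.44 and 4.59 in Nrp1-deleted hosts, against 3.42, 4.98 and 3.93 in controls, the setting that overlapped. On MC38 day 18 it was 4.38 and 5.49 in Nrp1-deleted hosts, against 3.93 and 3.95 in controls. The means were 1.93 ± 0.30 higher in B16, 3.82-fold, and 0.75 ± 0.30 higher in MC38.

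Spry1 had its highest level in Nrp1-deleted hosts on B16 day 12, at 8.90 and 8.66, against 6.09 and 6.19 in controls. On the early B16 day it was 6.51 and 7.64 in Nrp1-deleted hosts, against 6.15 and 6.12 in controls. Day 18 gave 6.79, 6.73 and 6.64 in Nrp1-deleted hosts, against 5.99, 5.80 and 5.68 in controls. Control arrays of B16 held to a band of 5.68 to 6.19 over the 3 days, across 2 sets of arrays, and every Nrp1-deleted array lay above it. In MC38 it was 4.56 and 5.16 in Nrp1-deleted hosts on day 6, against 4.03 and 4.0 in controls. On MC38 day 12 it was 5.23, 4.44 and 5.0 in Nrp1-deleted hosts, against 4.75, 5.38 and 5.42 in controls, so that the control mean was the higher. On MC38 day 18 it was 4.44 and 5.15 in Nrp1-deleted hosts, against 4.45 and 3.94 in controls, which overlapped. The B16 mean was 1.49 ± 0.17 higher, 2.81-fold, and the MC38 mean 0.38 ± 0.17 higher.

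**Figure D1:**
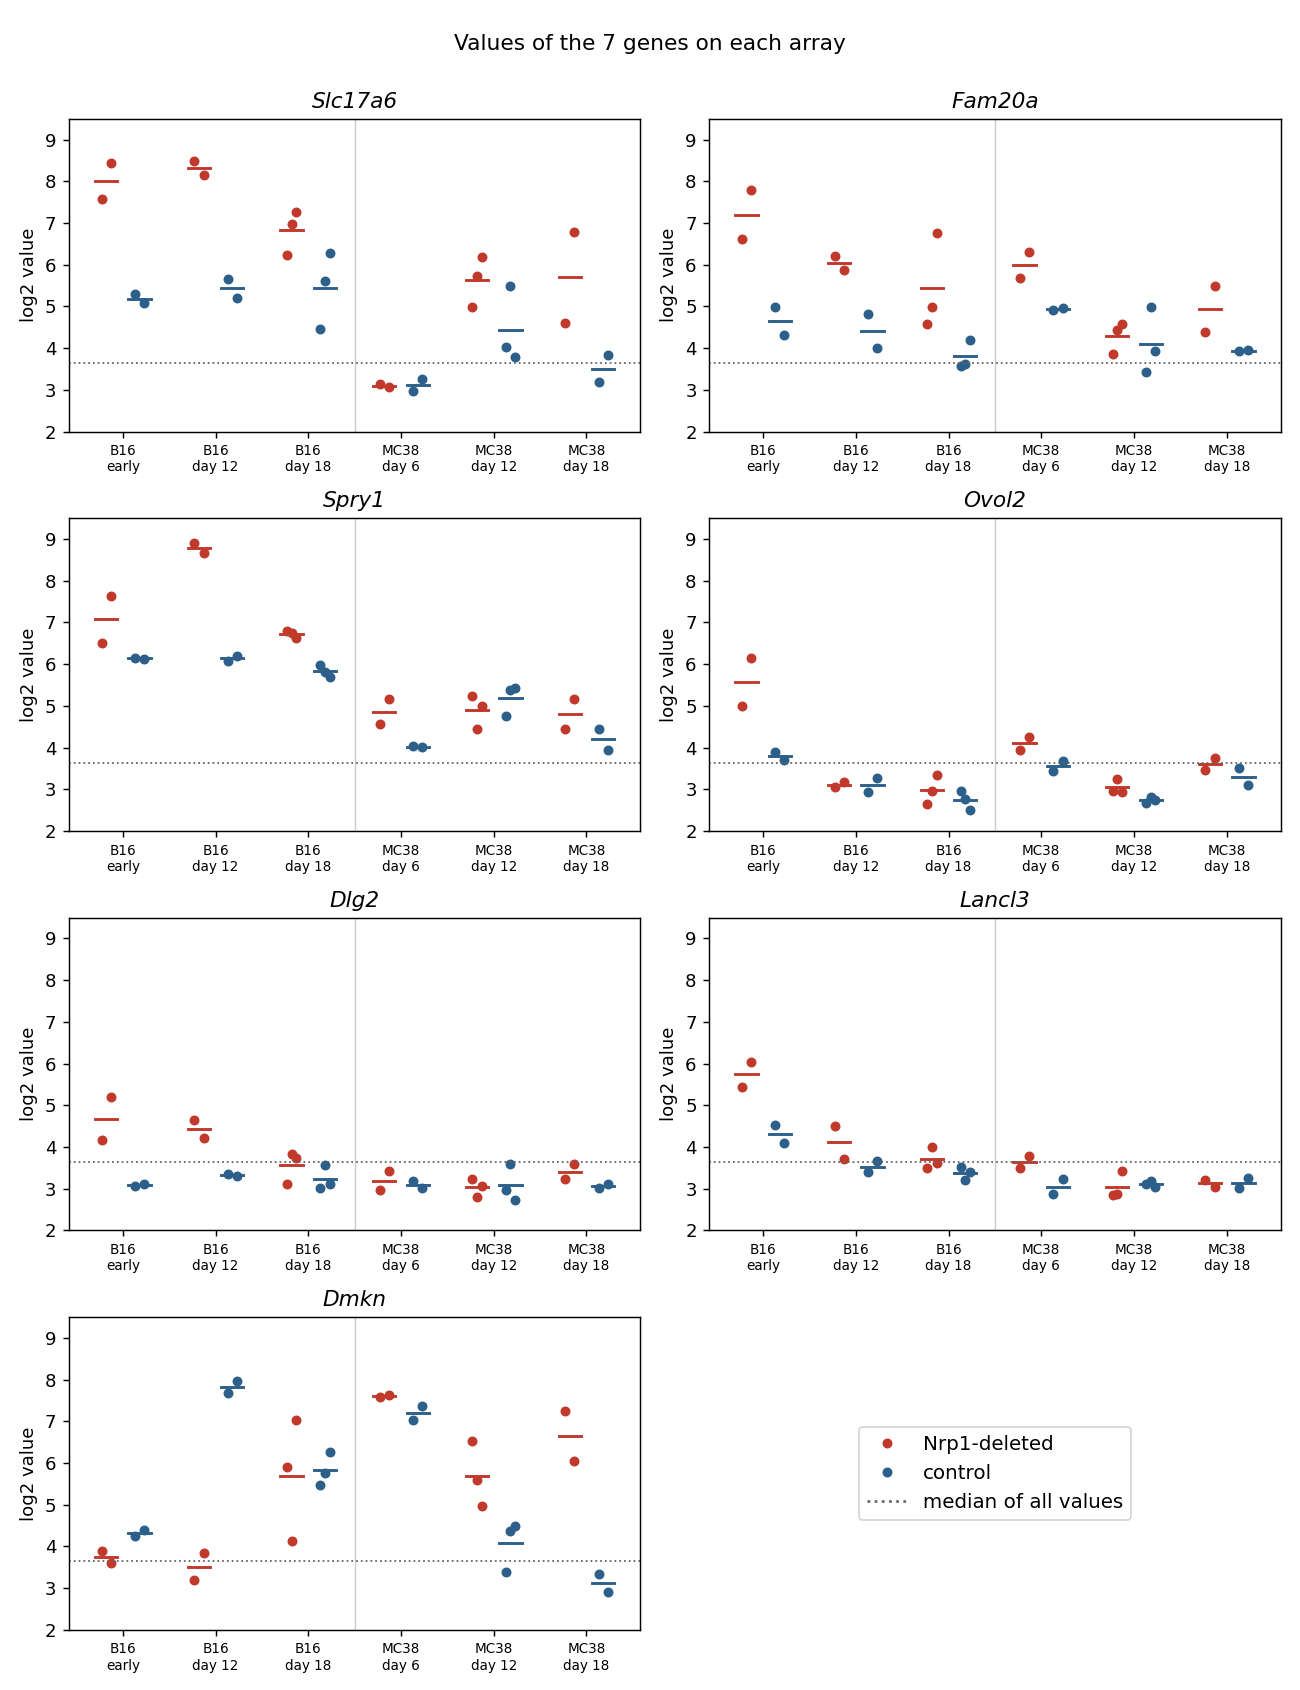
Log2 value of each of the 7 genes (y axis) on each array, by tumour and day (x axis), with Nrp1-deleted arrays in red left of control arrays in blue, bars at group means and a dotted line at the median of all values, 3.64. The group means of Slc17a6, Fam20a and Spry1 lie above that line in every B16 group, while those of Ovol2, Dlg2 and Lancl3 lie near or below it in most groups, and Dmkn is higher in Nrp1-deleted than in control arrays of MC38 and lower in those of early and day 12 B16.

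Ovol2, Dlg2 and Lancl3 were dim genes whose difference was largest on the early B16 day. Ovol2 stood at 5.0 and 6.14 there in Nrp1-deleted hosts, against 3.90 and 3.70 in controls. From day 12 of B16 on, both genotypes lay at 2.51 to 3.35, below the median of all values, and overlapped. In MC38 the Nrp1-deleted arrays of Ovol2 were 3.94 and 4.26 on day 6, against 3.44 and 3.68 in controls. On MC38 day 12 they were 2.96, 3.24 and 2.94, against 2.67, 2.82 and 2.74 in controls, and on day 18, where the groups overlapped, 3.45 and 3.75, against 3.50 and 3.11. The first 2 MC38 days were apart at levels near or below the median. Ovol2's means were 0.67 ± 0.15 higher in B16 and 0.38 ± 0.15 higher in MC38, and its B16 mean rested on the early day, 1.77 ± 0.27, since day 12 gave 0.00 and day 18 gave 0.24.

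Dlg2 stood at 4.16 and 5.20 in Nrp1-deleted early B16 arrays, against 3.06 and 3.12 in controls. On B16 day 12 it was 4.63 and 4.22 in Nrp1-deleted hosts, against 3.36 and 3.30 in controls. By day 18 of B16 it was 3.11, 3.82 and 3.73 in Nrp1-deleted hosts, against 3.02, 3.58 and 3.10 in controls. Only the first pair of days was without overlap. The MC38 arrays of both genotypes lay between 2.72 and 3.59, and the Nrp1-deleted group was apart there on day 18 alone, at 3.23 and 3.59, against 3.01 and 3.11. The difference was 1.00 ± 0.17 in B16 and 0.13 ± 0.17 in MC38. Of the other 2 probe sets of Dlg2, one gave 0.61 and the other 0.07 in B16, and all 3 probe sets averaged below the median of all values. The flat probe set averaged 3.35, close to the 3.40 of the main one, so the probe sets of Dlg2 disagree, and with their mean the B16 difference was 0.56.

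Lancl3 stood at 5.45 and 6.03 in Nrp1-deleted early B16 arrays, against 4.52 and 4.09 in controls. On B16 day 12 it was 4.51 and 3.72 in Nrp1-deleted hosts, against 3.39 and 3.67 in controls. At day 18 of B16 it stood at 3.49, 4.0 and 3.62 in Nrp1-deleted hosts, against 3.52, 3.21 and 3.40 in controls. The early day separated widely, day 12 by a narrow margin and day 18 overlapped. MC38 day 6 gave 3.49 and 3.78 in Nrp1-deleted hosts, against 2.87 and 3.23 in controls, and the later MC38 days overlapped. The mean differences were 0.78 ± 0.14 in B16 and 0.17 ± 0.14 in MC38.

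Dmkn went opposite ways in the 2 tumours. In MC38 it stood at 7.59 and 7.62 in Nrp1-deleted hosts on day 6, against 7.03 and 7.37 in controls. On MC38 day 12 it was 6.52, 5.59 and 4.97 in Nrp1-deleted hosts, against 3.38, 4.36 and 4.48 in controls. On MC38 day 18 it was 7.24 and 6.06 in Nrp1-deleted hosts, against 3.33 and 2.91 in controls. No MC38 day overlapped, and the difference was largest on day 18, 3.53, where the control arrays lay below the median of all values. The MC38 mean was 1.85 ± 0.32. In B16 the early day gave 3.89 and 3.61 in Nrp1-deleted hosts, against 4.25 and 4.38 in controls. On B16 day 12 it was 3.20 and 3.83 in Nrp1-deleted hosts, against 7.68 and 7.97 in controls. On B16 day 18 it was 5.90, 4.14 and 7.03 in Nrp1-deleted hosts, against 5.47, 5.77 and 6.27 in controls. Dmkn was thus lower with no overlap on the early day and day 12, with a difference of -4.31 on day 12, and overlapped on day 18. The B16 mean was -1.68 ± 0.32 and the mean of all 6 settings 0.09 ± 0.23.

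**Figure D2:**
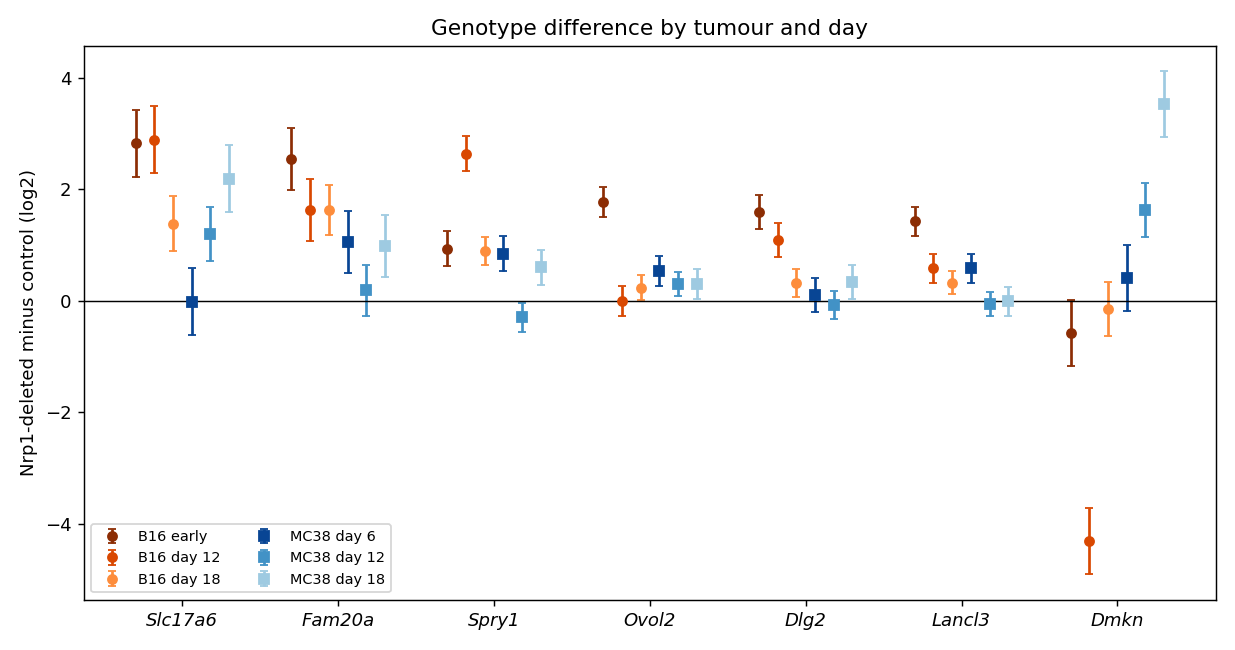
Nrp1-deleted minus control difference in log2 units (y axis) for each gene (x axis) in the 3 B16 settings (orange circles) and the 3 MC38 settings (blue squares), with bars of 1 SE from the limma fit. Slc17a6 and Fam20a lie above 0 on every B16 day, Spry1 peaks on B16 day 12, and Dmkn spans from -4.31 on B16 day 12 to 3.53 on MC38 day 18.

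Because the genotype contrast chose these genes, the number of them whose arrays do not overlap is given beside the share of all genes and says nothing more about them. Every Nrp1-deleted array lay above every control array for 6 of 7 genes on the early B16 day (21.2% of all genes) and 5 on B16 day 12 (31.6%). The count was 2 on B16 day 18 (13.6%), 5 on MC38 day 6 (16.2%), 2 on MC38 day 12 (8.38%) and 4 on MC38 day 18 (19.7%). Only Dmkn lay below without overlap, on the early B16 day (22.9% of all genes) and B16 day 12 (24.1%). Fam20a and Spry1 were above on all 3 B16 days, as were 3.14% of all genes, and Dmkn on all 3 MC38 days, as were 2.99%.

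The order of the 12 group means crosses the 3 sets of arrays, whose mean values were 4.63 to 4.96, and means below the median of all values have no sure order. Slc17a6 had its highest mean, 8.33, in Nrp1-deleted hosts on B16 day 12 and its lowest, 3.10, in Nrp1-deleted hosts on MC38 day 6, below that median. The highest mean of Spry1, 8.78, was also in Nrp1-deleted hosts on B16 day 12, while that of Dmkn, 7.83, was in control hosts of that day. Dlg2 reached a mean above the median of all values in 2 groups only, both Nrp1-deleted B16 groups. Fam20a and Spry1 lay above that median in all 12 groups. Neighbours in the order of the 12 means mostly overlapped: of 11 neighbouring pairs, 4 were apart for Spry1, 2 for Ovol2 and Dmkn, and 1 for Slc17a6, Fam20a, Dlg2 and Lancl3. In Slc17a6 the top pair, Nrp1-deleted B16 day 12 and early, was apart from the rest. In Spry1, the 6 B16 groups held the top 6 places whatever the genotype, though the day 18 B16 arrays and MC38 arrays of other days belong to different sets of values.

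The difference between days, averaged over both genotypes, was not the contrast that chose the genes, though it rests on the same arrays. It was tested with limma over all 17097 genes, with calls at an adjusted p of 0.05. A genotype difference on 1 day alone is part of it, so changes that passed are also given by host. From the early day to day 12 of B16, 4 of the 7 genes changed: Spry1 and Dmkn rose, as did 13.1% of all genes, and Ovol2 and Lancl3 fell, as did 10.1%. Ovol2 changed most surely, with a day 12 mean of 3.11, against 4.68 early (-1.57 ± 0.19, adjusted p = 2.01e-06). The mean of Lancl3 was 3.82 on day 12, against 5.02 early (-1.20 ± 0.18, adjusted p = 3.36e-05). By host, the change of Ovol2 was -2.46 in Nrp1-deleted and -0.69 in control hosts, where it did not pass alone (adjusted p = 0.0939). The change of Lancl3 was -1.62 in Nrp1-deleted and -0.78 in control hosts, and both passed. Spry1 averaged 7.46 on day 12, against 6.61 early (0.85 ± 0.22, adjusted p = 0.00652). This change was 1.7 in Nrp1-deleted and 0.00 in control hosts. Without the first Nrp1-deleted early array it was 0.57 and no longer passed (adjusted p = 0.0724). Dmkn averaged 5.67 on day 12, against 4.03 early (1.64 ± 0.42, adjusted p = 0.0054), with a change of -0.24 in Nrp1-deleted and 3.51 in control hosts. Whether the hosts differ in these day changes was not tested. Slc17a6 (0.29 ± 0.43, adjusted p = 0.74), Fam20a (-0.71 ± 0.39, adjusted p = 0.237) and Dlg2 (-0.01 ± 0.22, adjusted p = 0.99) did not pass.

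Between day 6 and day 18 of MC38, Slc17a6 rose, as did 7.31% of all genes, and Dmkn fell, as did 5.54%. Dmkn averaged 4.88 on day 18, against 7.41 on day 6 (-2.52 ± 0.42, adjusted p = 0.000252). The change was -0.96 in Nrp1-deleted hosts, which did not pass alone (adjusted p = 0.56), and -4.08 in control hosts. Slc17a6 averaged 4.60 on day 18, against 3.11 on day 6 (1.5 ± 0.43, adjusted p = 0.0207), with 2.60 in Nrp1-deleted and 0.39 in control hosts. This call was lost on leaving out any of 4 of the 8 arrays, at adjusted p-values of 0.07 to 0.176, and the value was 0.95 without the second Nrp1-deleted day 18 array. Fam20a differed by -1.03 ± 0.39 and did not pass (adjusted p = 0.0924), except in a fit of the compared groups alone (adjusted p = 0.0144). Spry1, Ovol2, Dlg2 and Lancl3 lay between -0.38 and 0.10 and did not pass.

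Relatives of the 7 genes were tested for the genotype difference, to be read against the 10.3% of all genes that rose and 12.3% that fell in B16, and the 6.97% and 12.3% in MC38. Of 9 measured genes of vesicular transport and glutamate handling, 1 rose and 0 fell in B16, Slc17a9, the vesicular nucleotide transporter (0.38 ± 0.12, adjusted p = 0.0231). None passed in MC38. The medians of those 9 genes were 0.02 and 0.01, against 0.01 and -0.06 over all genes. Slc17a7, Slc1a3, Slc1a1, Slc18a3, Slc1a2 and Slc32a1 averaged 2.72 to 3.18 over the arrays, below the median of all values, 3.64. Their flat values therefore say little. Of 7 genes around FAM20 kinases, 1 rose and 3 fell in B16, where Fam20a was higher, and 0 rose and 1 fell in MC38. Fam20c, the kinase that Fam20a activates, fell by 0.94 (adjusted p = 0.00148), Gask1b, a Golgi protein, by 1.86 (adjusted p = 1.14e-06) and Pkdcc, a secreted tyrosine kinase, by 0.91 (adjusted p = 2.39e-05). B4galt7, which builds the linker of glycosaminoglycans, rose by 0.36 (adjusted p = 0.0248), and in MC38 Xylt2, which starts that linker, fell by 0.55 (adjusted p = 0.00374). The median of those 7 genes was -0.21 in B16 and -0.04 in MC38.

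The relatives of Spry1 divided. Of 13 measured Sprouty and SPRED inhibitors and ERK feedback targets, 1 rose and 4 fell in B16, and 2 rose and 0 fell in MC38. Spry2, the close homologue of Spry1, rose in both tumours, by 0.41 ± 0.15 in B16 (adjusted p = 0.0476) and by 1.31 ± 0.15 in MC38 (adjusted p = 1.53e-06). Dusp4, a phosphatase that switches off ERK, rose by 1.03 in MC38 (adjusted p = 0.000652). In B16 the ERK-induced factor Etv5 fell by 1.33 (adjusted p = 1.61e-08), Phlda1 by 0.72 (adjusted p = 1.69e-06) and Ier3, an immediate early gene, by 1.03 (adjusted p = 1.54e-05). Spred1, another inhibitor of the pathway, fell by 0.89 (adjusted p = 1.95e-07). The medians were -0.07 in B16 and -0.05 in MC38.

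Of 11 OVOL and epithelial regulators, 0 rose and 2 fell in B16, where Ovol2 was higher. Zeb2, a repressor of epithelial genes, fell by 0.65 (adjusted p = 7.73e-06) and Grhl3, an epidermal factor, by 0.25 (adjusted p = 0.0235). In MC38 Twist1, a mesenchymal factor, fell by 0.64 (adjusted p = 0.000392) and none rose. Grhl3 and Twist1 averaged 2.65 and 3.31 over the arrays, below the median of all values. So did Ovol1, Esrp1, Esrp2, Snai1 and Snai2, which did not pass. Of 15 MAGUK scaffolds and partners, 1 rose and 3 fell in B16, and 1 rose and 2 fell in MC38. Dlg1, a homologue of Dlg2 found in lymphocytes, rose by 0.20 in B16 (adjusted p = 0.0151) and 0.29 in MC38 (adjusted p = 0.00106). Cask, a synaptic MAGUK, fell by 0.69 in B16 (adjusted p = 0.000434), Mpp1, a red cell MAGUK, by 0.42 (adjusted p = 0.00227) and Mpp6 by 0.19 (adjusted p = 0.0341). In MC38 Dlg5 fell by 0.44 (adjusted p = 0.0393) and Mpp6 by 0.19 (adjusted p = 0.0398). Both relatives of Lancl3 fell in MC38, Lancl1 by 0.22 (adjusted p = 0.0229) and Lancl2 by 0.25 (adjusted p = 0.0166), and neither passed in B16. Of 14 epidermal genes related to Dmkn, Tgm1, a transglutaminase of the cornified envelope, fell by 0.51 in B16 (adjusted p = 0.0465). None of those 14 passed in MC38, where Dmkn was higher. Sbsn and Krtdap, which lie beside Dmkn in the genome, were among those that did not pass.

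Relatives also changed between days, when 13.1% of all genes rose and 10.1% fell in B16, and 7.31% and 5.54% in MC38. Of the 9 genes beside Slc17a6, 1 rose in B16 and none passed in MC38. Slc17a5, the lysosomal sialic acid transporter, rose between the early day and day 12 of B16 by 1.15 (adjusted p = 4.03e-06). Of 7 genes beside Fam20a, 4 rose in B16, where Fam20a did not pass: Pkdcc by 1.90 (adjusted p = 7.96e-08), Dipk1a by 0.77 (adjusted p = 5.8e-05), Fam20c by 1.10 (adjusted p = 0.00372) and Pomk by 0.57 (adjusted p = 0.0114). Pomk, a kinase of the secretory pathway, also rose in MC38, by 0.55 (adjusted p = 0.0248). Of 13 genes beside Spry1, 2 rose and 3 fell in B16, and 1 rose and 4 fell in MC38. Spred2 fell by 1.01 (adjusted p = 2.05e-08), Phlda1 by 0.67 (adjusted p = 0.000142) and Dusp4 by 1.17 (adjusted p = 0.00146) in B16, where Spry1 rose, and Dusp6, an ERK phosphatase, rose by 0.50 (adjusted p = 9.01e-05). In MC38 Phlda1 fell by 0.62 (adjusted p = 0.000917), Spry2 by 0.88 (adjusted p = 0.00291) and Dusp4 by 1.18 (adjusted p = 0.003), and Etv5 rose by 0.74 (adjusted p = 0.00229). Grhl1, an epithelial factor, fell by 0.99 in B16 (adjusted p = 0.00195), as Ovol2 did, and by 0.71 in MC38 (adjusted p = 0.0392). Zeb2 rose by 0.55 in B16 (adjusted p = 0.00116) and fell by 0.44 in MC38 (adjusted p = 0.0152). Of 15 genes beside Dlg2, 3 rose and 2 fell in B16, led by Mpp1 (0.70 ± 0.13, adjusted p = 0.000181), and Dlg3 alone rose in MC38, by 0.96 (adjusted p = 0.000306). Lancl1 rose by 0.32 in B16 (adjusted p = 0.00957), where Lancl3 fell, and by 0.47 in MC38 (adjusted p = 0.000824), and Lancl2 fell by 0.30 in B16 (adjusted p = 0.0239). Of 14 genes beside Dmkn, Tgm1 fell by 1.22 between the MC38 days (adjusted p = 0.00114), as Dmkn did, and none passed between the B16 days, when Dmkn rose.

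The genes nearest to each member were found by distance: each gene's values were taken minus the mean of their tumour and day, and the root mean square difference over the 28 arrays was ranked among 9758 genes brighter than the median of all values. The genotype difference is part of that distance, so nearness is a description. Slc17a6 was nearest to Fam20a, Wdr95 and Lag3, an inhibitory receptor of activated T cells, at 0.59 to 0.64 log2 units, against a size of 1.10 for its own values. Fam20a was nearest to Zbtb32, a repressor of activated lymphocytes, Spin4 and Tmem163, a zinc transporter. Spry1 was nearest to Gpld1, Ikzf3, which encodes the lymphocyte factor Aiolos, and Kcnk5, a potassium channel. Havcr2, which encodes the inhibitory receptor TIM-3, was the nearest gene to Dlg2 (0.20), Lancl3 (0.22) and Ovol2 (0.29). After it came Twsg1 and Fancf for Dlg2, Entpd1, the ectonucleotidase CD39, and Gna15 for Lancl3, and Gnptab and Gas2 for Ovol2. The 3 dim genes had small values of their own, 0.38 to 0.46, and a gene that did not vary would lie at that distance. Havcr2 lay at 43.1% of that size for Dlg2, 57.8% for Lancl3 and 68.9% for Ovol2. Beside this, Fam20a lay at 53.3% of the size of Slc17a6. Havcr2 was 0.83 ± 0.10 higher in B16 and 0.03 ± 0.10 in MC38. Dmkn was nearest to Hp, haptoglobin, Mmp8, the neutrophil collagenase, and F10, coagulation factor X, at 0.46 to 0.51, against 1.24 for its own values.

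**Figure D3:**
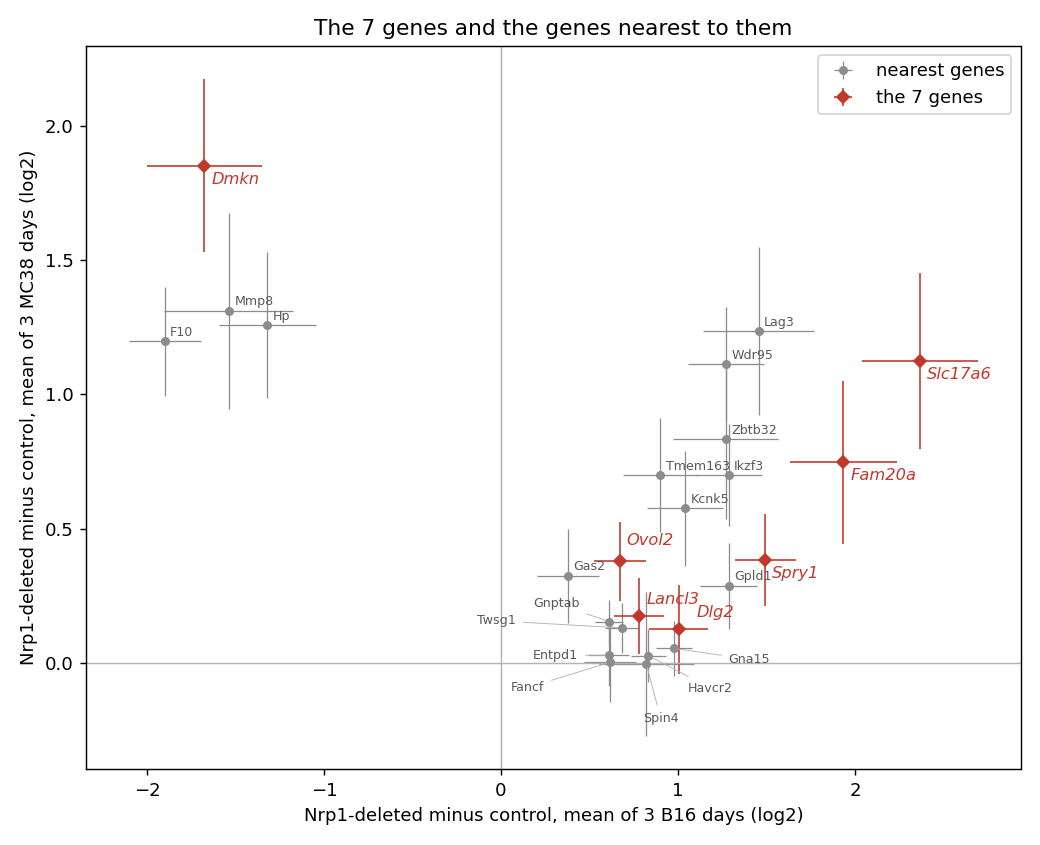
Nrp1-deleted minus control difference in B16 (x axis) against that in MC38 (y axis), both log2 means of 3 days with bars of 1 SE, for the 7 genes (red diamonds) and the 3 genes nearest to each (grey). Dmkn stands with Hp, Mmp8 and F10 at the upper left, lower in B16 and higher in MC38, and the other 6 genes lie to the right with the genes nearest to them.

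Marker lists of other cells were read beside the members. All 9 neuron markers, among them Tubb3, Snap25 and Rbfox3, averaged below the median of all values, as did 8 of 10 epithelial and keratinocyte markers, among them Krt5 and Krt14. The mean log2 value of the 9 neuron genes was 2.87 to 3.15 on Nrp1-deleted and 3.0 to 3.14 on control B16 arrays. On MC38 arrays it was 2.73 to 3.09 in Nrp1-deleted and 2.83 to 3.07 in control hosts. The T cell list was higher in Nrp1-deleted hosts in all 6 settings, by 0.64 to 1.49 in the mean. The members were chosen by this genotype difference, so the number of settings in which each was higher only describes them. That number was not counted over all genes. Fam20a and Ovol2 had the higher mean in Nrp1-deleted hosts in 6 settings, Ovol2 by 0.00 on B16 day 12. The number was 5 for Slc17a6, Spry1 and Dlg2, 4 for Lancl3 and 3 for Dmkn. Of the 7 measured genes of the T cell list, 6 rose in B16 and 6 in MC38. Its mean was 10.17 and 10.53 in Nrp1-deleted early B16 arrays, against 9.79 and 9.63 in controls. On B16 day 12 the T cell mean was 10.72 and 10.55 in Nrp1-deleted hosts, against 9.67 and 9.53 in controls. Over the 3 MC38 days it ran from 7.58 to 8.83 in Nrp1-deleted and from 6.20 to 7.89 in control hosts. All 8 macrophage markers fell in B16, with a day 12 mean of 5.96 and 6.57 in Nrp1-deleted hosts, against 9.69 and 9.76 in controls, and 0 of 8 passed in MC38. Of 8 melanocytic markers, 8 fell in the mean of the B16 days, with mean differences of -2.01 on day 12 and -3.34 on day 18. Their mean on day 18 was 6.32 to 7.36 in Nrp1-deleted hosts, against 10.07 to 10.65 in controls. On the early day 6 of 8 were higher in Nrp1-deleted hosts, with a mean difference of 0.23. Only the first Nrp1-deleted array was higher there, at 8.19, while the second was at 7.24, against 7.52 and 7.45 in controls. Of 7 basophil and mast cell markers, 6 rose in B16 and 0 in MC38. The basophil mean on B16 day 18 was 7.79, 6.57 and 4.54 on the Nrp1-deleted arrays, against 3.70, 3.36 and 4.13 on control arrays. It was lowest on the third Nrp1-deleted array. Within that group Slc17a6, Fam20a, Ovol2 and Dmkn were highest on the third array, Spry1 was lowest there, and Dlg2 and Lancl3 lay between. The part of these cells in the members' differences was not tested.

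Differences between replicate arrays of 1 group are free of the genotype contrast. On the early B16 day the second Nrp1-deleted array lay above the first for all 6 genes chosen in B16, by a median of 1.09, while 54.9% of all genes did so and the median over all genes was 0.03. Marker lists also differed between these arrays, second against first: the macrophage mean was 6.18 against 7.59, the melanocytic mean 7.24 against 8.19, the basophil and mast cell mean 5.35 against 4.48 and the T cell mean 10.53 against 10.17. On B16 day 12 the second Nrp1-deleted array differed from the first by a median of -0.33 over these 6 genes, with Ovol2 at 0.10. Over all genes the median there was 0.03. The basophil and mast cell mean was 6.67 against 5.26 there and the T cell mean 10.55 against 10.72. The median of the 6 genes was 0.39 in Nrp1-deleted hosts on MC38 day 6, against -0.01 over all genes. In control groups of 2 arrays the median of the 6 was -0.21 to 0.15, against -0.03 to 0.01 over all genes. On MC38 day 18 the second Nrp1-deleted array was above the first for 5 of the 7 genes (50.0% of all genes), with Slc17a6 2.19 higher and a T cell mean of 8.79 against 8.22. On MC38 day 12 the control array highest for Slc17a6, 5.49, Fam20a, 4.98, and Dlg2, 3.59, was also highest for the T cell list, 7.89, against 7.07 and 6.20. Ovol2, 2.82, and Lancl3, 3.17, were highest on that array too. Spry1, 5.42, and Dmkn, 4.48, were highest on the third control array instead, the lowest for that list. Over the 12 groups, the array highest for the T cell list was also highest for Fam20a and Lancl3 in 10 and for Slc17a6 in 9. Of all genes, 1.74% matched it in at least 10 groups and 5.47% in at least 9. For Spry1 the count was 6, for Ovol2 7 and for Dlg2 8, which 50.0%, 29.3% and 14.0% of all genes reached. For Dmkn it was 2, which 98.8% of all genes reached. These counts were chosen after the arrays' values had been seen.

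The neutrophil markers went the same way as Dmkn in some settings and not in others. The mean of 5 of them (S100a8, S100a9, Csf3r, Cxcr2 and Mmp8, the last also among the genes nearest to Dmkn) was 4.49 and 5.07 in Nrp1-deleted hosts on B16 day 12, against 6.63 and 7.05 in controls, the setting in which Dmkn was lowest relative to controls. On MC38 day 18 it was 7.55 and 6.67 in Nrp1-deleted hosts, against 6.07 and 5.87 in controls, where Dmkn was highest relative to controls. Only 3 of the 5 markers had the higher mean in Nrp1-deleted hosts there, and 1 of the 5 did on B16 day 12. On MC38 day 6 the markers were also apart, at 8.17 and 8.33 in Nrp1-deleted hosts, against 7.70 and 7.63 in controls. The difference there was 0.58, beside 0.405 for Dmkn, whose groups were apart as well. On B16 day 18 the third Nrp1-deleted array was highest of its group for both, at 6.42 for the markers and 7.03 for Dmkn, and the second was lowest for both. On the early B16 day the markers overlapped between genotypes, at 4.77 and 4.92 in Nrp1-deleted hosts, against 4.51 and 4.96 in controls, while Dmkn did not. On MC38 day 12 the markers overlapped too, at 5.50 to 6.27 in Nrp1-deleted hosts, against 4.95 to 6.06 in controls, a difference of 0.22 beside 1.62 for Dmkn. On B16 day 18 the markers differed by -1.30 and Dmkn by -0.15. In 9 of the 12 groups the array highest for these markers was also highest for Dmkn, a count that 4.19% of all genes reached and that was also chosen after the values had been seen. Of the 5 markers, 4 fell in B16 and 1, Mmp8, rose in MC38. The part of neutrophils in the Dmkn values was not tested.

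**Figure D4:**
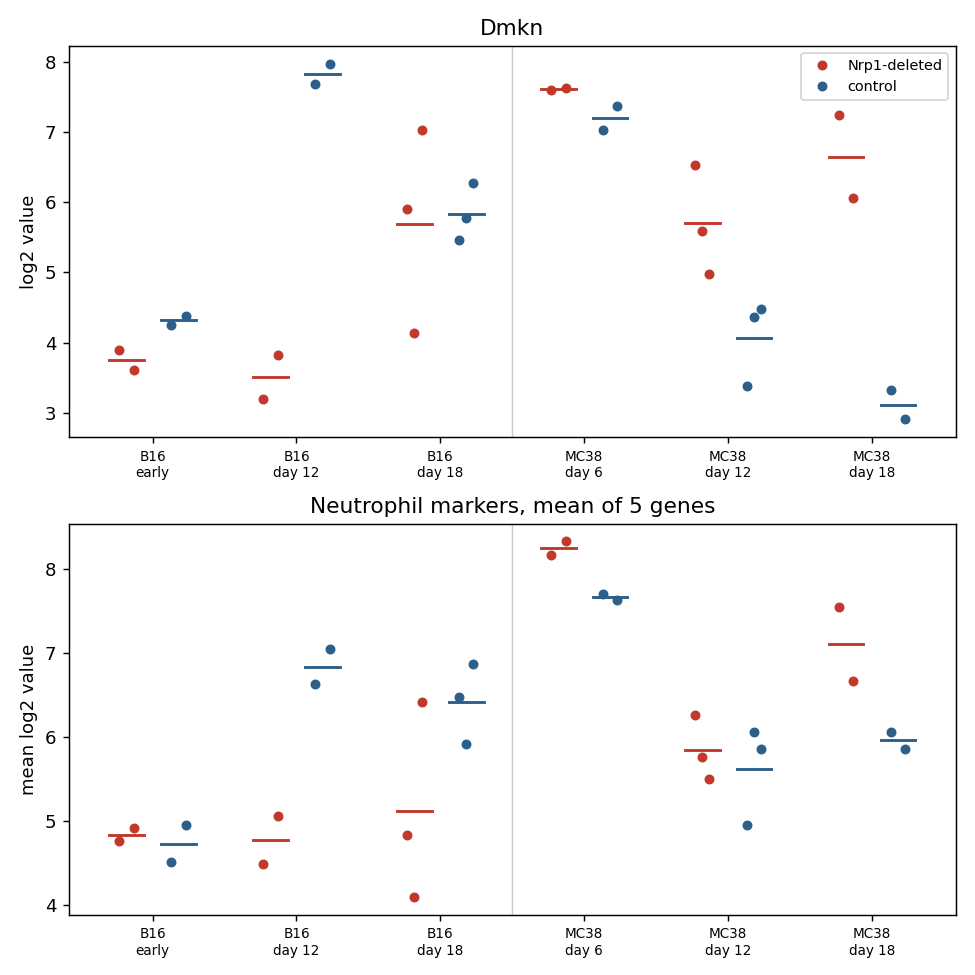
Log2 value of Dmkn (upper panel) and mean log2 value of 5 neutrophil markers (lower panel) on each array, by tumour and day (x axis), with Nrp1-deleted arrays in red left of control arrays in blue and bars at group means. On B16 day 12 both panels are low in Nrp1-deleted and high in control arrays. On MC38 day 18 both are higher in Nrp1-deleted than in control arrays, the lower panel with 3 of its 5 markers higher.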

How the data were processed

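The authors deposited log2 values, and the submitters' processing notes name RMA and Partek 6.6. Per the labels' protocols, cRNA was made by repeated rounds of amplification, which can distort low transcripts. The table held 45141 probe sets, of which a probe table paired 28898 with 1 gene. Each of 17097 genes was represented by its brightest probe set over the 28 arrays. The arrays fall into 3 sets by the shape of their values. Group means were fitted with limma 3.58.1 (R 4.3.3, intensity trend) on all 28 arrays, and p-values were adjusted by Benjamini-Hochberg over all genes, called at 0.05, two-sided. This was tested on simulated data. The number of arrays limits the precision. The 7 genes, the lists and the tests were chosen with earlier results of these data known. Named beside the 7 genes are Nrp1 and Ptprc, the 3 nearest genes of each, passing over predicted and clone-named genes, and up to 4 family genes past the threshold by smallest adjusted p. Alternatives were cyclic loess, 75th percentile centring, the mean of a gene's probe sets, array weights, no trend, brighter genes only, the compared groups only, 1 host genotype only, the replicate number as a block, and leaving out each array. Promoter sequences are from RefSeq, GRCm38.p6; coordinates are 1-based.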

Additional observations from a re-analysis of the deposited data

Results flagged for a closer look

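The Nrp1-deleted minus control difference of Dmkn had opposite signs in the 2 tumours with no overlap between the groups' arrays. It was -0.57 on the early B16 day and -4.31 on B16 day 12, against 0.41 on MC38 day 6, 1.62 on MC38 day 12 and 3.53 on MC38 day 18. The difference between the tumours was not tested, since the genotype contrast chose the gene. On B16 day 18 the groups of Dmkn overlapped.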

How the results depend on the processing

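Under the alternatives run, the genotype difference of each of the 7 genes kept its sign in B16 and in MC38, while on leaving out 1 array the mean of Dmkn over 6 settings ranged from -0.0232 to 0.2176. For the day 12 minus early difference in B16, Dlg2 ranged from -0.27 to 0.25 on leaving out an array, and was 0.0051 with the mean of its probe sets and 0.24 in control hosts. Spry1 gave -0.0025 in control hosts and Dmkn -0.24 in Nrp1-deleted hosts. For the day 18 minus day 6 difference in MC38, Spry1 ranged from -0.12 to 0.24 on leaving out an array, and was -0.0066 with cyclic loess and -0.0612 in Nrp1-deleted hosts. Dlg2 ranged from -0.0198 to 0.2126 and was -0.0273 in control hosts, and Lancl3 was 0.0802 there. The causes were not tested. The MC38 day difference called 2196 genes, 1273 to 2734 on leaving out an array (1273 without the second Nrp1-deleted day 6 array) and 332 in Nrp1-deleted hosts alone, where fewer arrays enter. With the replicate block the counts were 3985 for the B16 days, 2221 for the MC38 days, and 3879 and 3275 for the genotype in B16 and MC38, against 3968, 2196, 3868 and 3300 without it, and no call of a member changed. The deviations of arrays with the same replicate number correlated at r from -0.28 to 0.20. On B16 day 18 these were 0.0950 to 0.196 and 3 of 3 arrays matched best with their own number, a hint from the data, and on MC38 day 12 0 of 3 did. The labels give no pairing. The number of arrays and dim probe sets limit Ovol2, Dlg2 and Lancl3.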
